A study of Homo sapiens and Mus musculus with 19 samples.

Results

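A group of 10 genes that report on protein folding stress and amino acid stress was read across 19 single-colour Affymetrix expression arrays of lung tumour lines. They were ATF4, DDIT3, TRIB3, ASNS, CHAC1, SESN2, XBP1, HSPA5, DNAJB9 and HERPUD1, chosen by name with earlier results of these data known. The mouse gene of the same name was read in the mouse cells. A probe set counted for a member if the platform annotation gave it that symbol alone, and the brightest such probe set stood for the gene. All 10 members had one in both species, and all 10 were among the 15212 human and 12549 mouse genes kept for testing, out of 19775 and 18194 genes with a probe set of their own.

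The study asked what switching the NF-kB pathway on or off does to gene expression in lung cancer cells. Each of 5 human lines gave 1 array per retroviral vector: MiG, the empty vector that carries GFP, IkB_SR, the same vector with a super-repressor form of IkBα, and IKKb, the same vector with activated IKKβ whose activating serines are changed to glutamate. The labels call A549 lung carcinoma, H358 bronchioalveolar carcinoma, and H23, HCC827 and PC9 lung adenocarcinoma. The mouse line LLC, a lung carcinoma whose labels add "kB OVA", gave 2 arrays with MiG and 2 with IKKb, and none with IkB_SR. Every culture, controls included, was transduced and sorted for GFP, so MiG is a control for carrying the vector and not an untreated cell. The human lines grew in RPMI and LLC in DMEM, both with serum. The replicates of a human vector are therefore 5 different lines, no line has a second array of any vector, and nothing in the labels says whether the 2 LLC arrays of a vector came from separate cultures, so that p-values there may measure technical spread.

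Cells that accumulate unfolded proteins in the endoplasmic reticulum (ER), or that run short of amino acids, cut general protein synthesis by phosphorylating the initiation factor eIF2α. The mRNA of ATF4 is then translated more, and ATF4 with its partners switches on DDIT3 (CHOP) and genes for amino acid supply. This is the integrated stress response, and since it raises ATF4 mainly in translation, the ATF4 mRNA need not follow ATF4 protein. The unfolded protein response has separate arms as well: IRE1 splices the XBP1 mRNA, and cleaved ATF6 and spliced XBP1 switch on chaperones such as HSPA5 (BiP) and parts of the degradation machinery such as HERPUD1. Arrays of this kind do not separate spliced from unspliced XBP1.

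The promoters of 5 members hold a letter match to one of the elements known for these factors, and they are shown because ATF6 and XBP1, or ATF4 and its partners, are known to bind these elements. Each is the RefSeq window of GRCh38.p14 from 250 bases before to 50 bases after the annotated start, written 5′ to 3′ on the gene's strand, with the match in capitals.
HSPA5, chr9:125241294-125241593, minus strand: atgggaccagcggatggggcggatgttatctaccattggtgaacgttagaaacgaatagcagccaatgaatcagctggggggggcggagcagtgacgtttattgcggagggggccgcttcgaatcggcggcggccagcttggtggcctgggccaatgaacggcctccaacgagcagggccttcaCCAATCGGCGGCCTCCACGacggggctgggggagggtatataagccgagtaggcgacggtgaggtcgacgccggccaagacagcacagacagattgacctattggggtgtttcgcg
XBP1, chr22:28800520-28800819, minus strand: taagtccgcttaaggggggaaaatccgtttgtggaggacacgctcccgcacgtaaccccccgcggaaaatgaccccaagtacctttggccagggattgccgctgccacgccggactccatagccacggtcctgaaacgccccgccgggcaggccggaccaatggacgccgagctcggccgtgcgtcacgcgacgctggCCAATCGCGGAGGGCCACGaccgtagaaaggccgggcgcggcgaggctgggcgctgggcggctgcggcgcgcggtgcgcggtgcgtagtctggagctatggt
ASNS, chr7:97872359-97872658, minus strand: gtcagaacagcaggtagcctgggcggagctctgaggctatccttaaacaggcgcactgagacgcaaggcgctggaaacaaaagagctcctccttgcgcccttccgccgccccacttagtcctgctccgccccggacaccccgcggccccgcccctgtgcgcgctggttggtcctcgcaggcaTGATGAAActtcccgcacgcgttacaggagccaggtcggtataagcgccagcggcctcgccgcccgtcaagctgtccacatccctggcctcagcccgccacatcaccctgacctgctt
CHAC1, chr15:40953221-40953520, plus strand: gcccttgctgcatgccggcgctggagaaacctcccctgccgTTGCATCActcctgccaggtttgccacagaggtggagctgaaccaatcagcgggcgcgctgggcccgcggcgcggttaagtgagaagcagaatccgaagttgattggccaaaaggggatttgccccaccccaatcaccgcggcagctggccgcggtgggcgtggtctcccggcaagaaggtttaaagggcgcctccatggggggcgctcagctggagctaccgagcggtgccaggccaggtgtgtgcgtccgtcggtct
HERPUD1, chr16:56931892-56932191, plus strand: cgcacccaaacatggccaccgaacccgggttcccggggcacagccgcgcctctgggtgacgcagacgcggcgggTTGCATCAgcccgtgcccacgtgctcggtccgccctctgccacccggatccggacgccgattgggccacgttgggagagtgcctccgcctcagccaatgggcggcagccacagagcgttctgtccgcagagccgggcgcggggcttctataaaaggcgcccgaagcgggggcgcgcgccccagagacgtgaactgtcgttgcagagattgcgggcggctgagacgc

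The ER stress element (CCAAT, 9 bases of any kind, CCACG, searched on both strands) lay 66 bases before the start of HSPA5 and 52 before that of XBP1, counted from its first base. It was found in 27 of 35116 RefSeq windows of the same length, or 0.0769%, and in 2 of the 16 windows of the members. The C/EBP-ATF element (TGATGNAA, both strands), to which ATF4 and its partners bind, was found in 3.62% of all windows and in 3 of the 16. In ASNS, the gene for asparagine synthetase, it read forward, 68 bases before the start. In CHAC1 and HERPUD1 it stood on the opposite strand, so that the window reads TTGCATCA, 209 and 176 bases before the start. The element TGACGTGG (both strands) was found in 0.729% of all windows and in 0 of the 16. These are letter matches in the window and not measured binding sites. Each of the 5 printed windows held 1 match, so no matches of different searches overlapped.

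The deposited values were MAS5 signals, a linear brightness scaled by the authors so that every array had the same trimmed mean of 500. Across arrays the median signal was 51.3 to 76.5 in human and 55.0 to 64.4 in mouse cells, and the number of arrays, not a read depth, limits the precision. All member values exceeded their array's 40th percentile, the lowest being CHAC1 in H358 with MiG at 89.0. EPCAM, KRT8, KRT18 and CDH1, epithelial markers, exceeded the 40th percentile on all 15 human arrays and KRT19 on 12, and their summed signal was 39371 to 95377. Of 4 leukocyte markers measured, 0 exceeded it on every array, but ITGAM did on 11 (up to 654), CD14 on 10, CD3E on 7 and PTPRC on 1, with a summed signal of 107 to 793. Of 7 fibroblast and endothelial markers COL1A1 and PECAM1 exceeded it on all 15, with a sum of 850 to 1773. In LLC, Krt8 and Krt18 read 4554 or more, Epcam exceeded the 40th percentile on 3 of 4 arrays, Krt19 on 2 and Cdh1 on 0. There Cd14 (503 to 566) and Cd68 exceeded it on all 4, Cd3e on 1, and Ptprc and Itgam on 0. Col3a1 (9899 to 20078), Col1a2 (61.0 to 84.9) and Pdgfrb (94.8 to 160) exceeded it on all 4, Cdh5 on 1, and Col1a1, Pecam1 and Vwf on 0. NFKBIA, the gene for IkBα, was 1.60 to 7.04-fold higher with IkB_SR than MiG in 4 lines and 0.782-fold in H23, so the array labelled H23 IkB_SR goes against its label in this gene. IKBKB is no clear check, since its 3 probe sets were higher with IKKb in 1, 2 and 5 of 5 lines. NFKBIA is also induced by NF-kB itself. With IKKb it was 3.89-fold above MiG in H358 and 3.32-fold in HCC827, but 1.16, 1.07 and 1.17-fold in A549, H23 and PC9, and in LLC it was 2.19 and 2.09-fold higher.

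The highest and lowest line means of the members differed by 0.71 to 2.97 on the log2 scale. Between vectors the largest mean difference over lines was 0.46, but opposite signs cancel in such a mean. Within HCC827, CHAC1 differed by 1.82 between IKKb and MiG, beyond its range of line means of 1.14. In bulk RNA a larger share of expressing cells and more RNA per cell cannot be told apart. TRIB3, the pseudokinase that ATF4 and CHOP induce and that restrains them, read 4014 to 5354 in A549 and 503 to 636 in H23. ASNS ran from 2938 to 4626 in H23 down to 690.5 to 1036 in PC9. Neither pair of ranges overlapped. HSPA5, the main ER chaperone, was bright in every line, from 11584 to 12383 in A549 to 18120 to 20419 in HCC827.

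**Figure D1:**
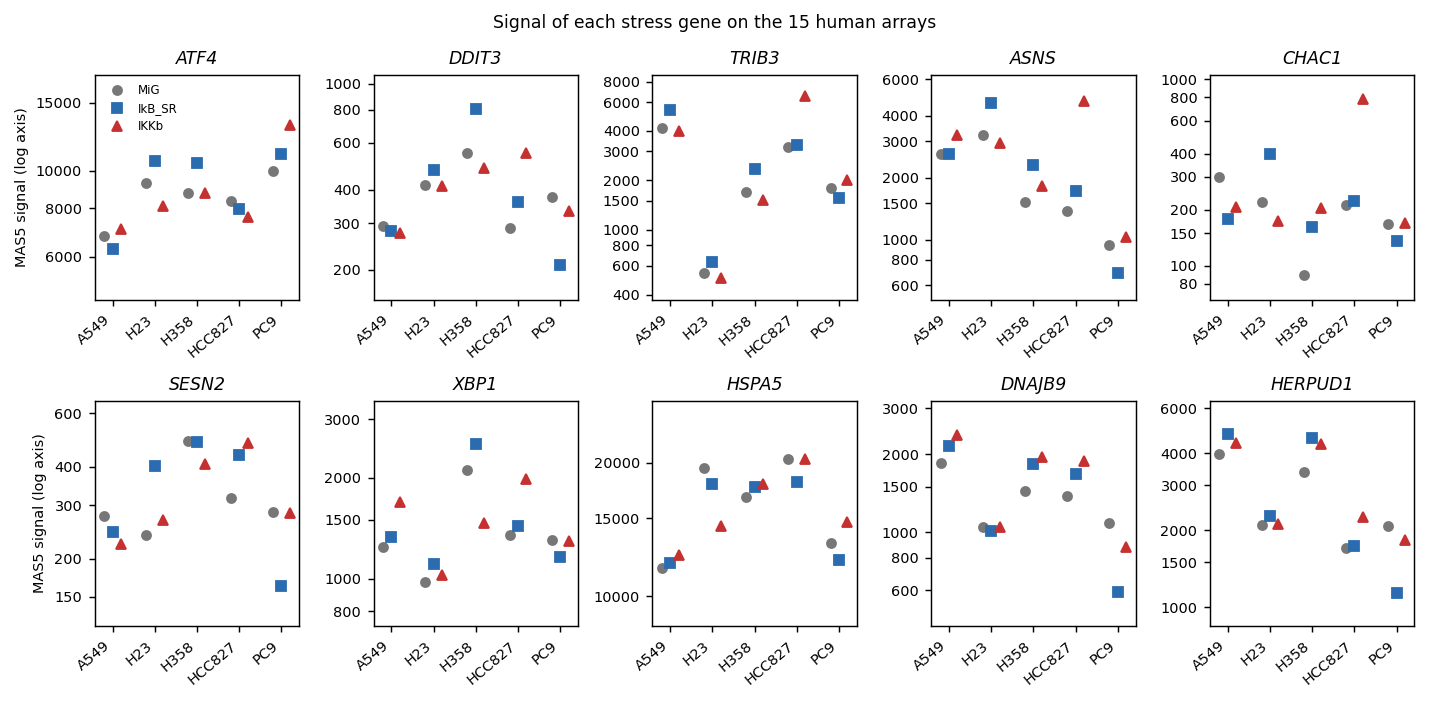
MAS5 signal (log axis) of each of the 10 stress genes on the 15 human arrays, by cell line, with 1 point per vector. Lines that are neighbours in level overlap in most cases. TRIB3 is lowest in H23 (503 to 636), apart from the other lines, and the IKKb array of HCC827 stands above its 2 partners for TRIB3, ASNS and CHAC1.

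With the vector as a term, limma's F-test over the 5 lines called 9 of the 10 members at an adjusted p below 0.05. That share is to be read against 86.7% of all genes tested, so a difference between lines is the rule on these arrays. TRIB3 spanned the widest range of line means, 2.97 on the log2 scale (adjusted p = 1.12e-07), followed by ASNS with 1.99 (adjusted p = 0.000267). CHAC1, an enzyme that breaks down glutathione, did not pass (range 1.14, adjusted p = 0.102). The call was lost for XBP1 when the probe sets of a gene were averaged (adjusted p = 0.672), for DDIT3 (0.0693) and SESN2 (0.0556) without the H358 arrays, and for ASNS (0.0699) without the PC9 arrays. The XBP1 average takes in a dim second probe set, under the 40th percentile on 9 of the 15 arrays. CHAC1 passed when arrays were centred on their medians (adjusted p = 0.0407) and without the H23 arrays (0.0473).

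The order of the lines, by mean log2 signal with 3 arrays each, was particular to each gene. Among the transcription factors, ATF4 was highest in PC9 (mean signal 11388 ± 1597, SD, n = 3) and lowest in A549 (6710 ± 406), and A549 was the one line whose range stood apart from the line above it. DDIT3, the pro-apoptotic factor CHOP, was highest in H358 (613 ± 168), apart from H23 below it, while the other neighbours in its order overlapped. The H358 range (485 to 803) still overlapped that of HCC827 (289 to 552). XBP1 was highest in H358 (2033 ± 532) and lowest in H23 (1037 ± 68.0), and H23 was apart from PC9 above it.

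Of the ATF4 targets, TRIB3 fell into 3 steps that did not overlap: A549 and HCC827, then H358 and PC9, then H23 (560 ± 68.7). For ASNS, H23, A549, HCC827 and H358 overlapped in turn, and PC9 lay apart (889 ± 178). CHAC1 read 407 ± 328 in HCC827, 264 ± 117 in H23, 228 ± 62.6 in A549, 159 ± 18.9 in PC9 and 151 ± 58.0 in H358, and of these neighbours A549 and PC9 did not overlap. The large SD in HCC827 comes from 1 array, described below. SESN2, a sestrin that holds back the growth kinase mTORC1 when amino acids are scarce, ran from 460 ± 45.3 in H358 to 243 ± 69.9 in PC9, each line overlapping the next.

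Of the ER genes, HSPA5 in HCC827 (19633 ± 1311) stood apart from H358, the next line by mean. Its range there (18120 to 20419) still overlapped that of H23 (14404 to 19473). The other lines overlapped in turn down to A549 (11961 ± 401). DNAJB9, an ER co-chaperone of HSPA5, was split into A549, H358 and HCC827, at 1381 to 2372, and H23 and PC9, at 589 to 1090. HERPUD1, an ER membrane protein that helps extract misfolded proteins for degradation, was split likewise but with HCC827 on the other side: A549 and H358 read 3382 to 4754, and H23, HCC827 and PC9 read 1142 to 2268.

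Across the 5 human lines, no member passed the test between any pair of vectors. The fit used log2(signal + 16), so folds of dim genes are understated, with the line as a block and Benjamini-Hochberg adjustment over 15212 genes. For IKKb against MiG limma called 0 of 10 members (0 at an unadjusted p below 0.05), and 0% of all genes, although 839 genes had an unadjusted p below 0.05. For IkB_SR against MiG it called 0 of 10 (0 unadjusted), and 0% of all genes, with 675 unadjusted. These 2 contrasts share the MiG arrays. For IKKb against IkB_SR it called 0 of 10 (0 unadjusted), against 0.933% of all genes, 93 higher and 49 lower.

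For IKKb against MiG, HSPA5 and ATF4 had the narrowest intervals. HSPA5 differed by −0.02 ± 0.09 (log2, SE, n = 5 lines, 95% interval −0.21 to 0.17) and ATF4 by 0.03 ± 0.09 (−0.18 to 0.23). ASNS differed by 0.46 ± 0.24 (−0.04 to 0.97, adjusted p = 0.878, above 0 in 4 of 5 lines) and CHAC1 by 0.42 ± 0.32 (−0.27 to 1.11, adjusted p = 0.919, 3 of 5 lines). The intervals of these 2 enzymes still include changes of nearly 2-fold. Both means rest on HCC827: without its arrays ASNS stood at 0.14 (adjusted p = 0.940) and CHAC1 at 0.07 (adjusted p = 0.977). The remaining differences were DNAJB9 0.19 ± 0.14, TRIB3 0.18 ± 0.18, HERPUD1 0.15 ± 0.14, XBP1 0.10 ± 0.14, DDIT3 0.09 ± 0.20 and SESN2 0.04 ± 0.19. Without HCC827, TRIB3 (−0.04), XBP1 (−0.01), DDIT3 (−0.11) and SESN2 (−0.10) lay below 0.

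For IkB_SR against MiG the members lay between −0.06 and 0.20 (adjusted p of 0.995 or more), and ASNS, at 0.20 ± 0.24, was the highest. Without the array labelled H23 IkB_SR they lay between −0.12 for CHAC1 and 0.13 for TRIB3, again with none called. For IKKb against IkB_SR they lay between −0.05 and 0.29, with adjusted p from 0.546 to 0.999. DNAJB9 was the member higher with IKKb than with IkB_SR in 5 of 5 lines, by 0.20 ± 0.14 (95% interval −0.09 to 0.50, adjusted p = 0.546). Without the array labelled H23 IkB_SR, CHAC1 stood at 0.54 and ASNS at 0.42 (both adjusted p = 0.518), neither passing, and DNAJB9 stood at 0.22 (adjusted p = 0.604). The CHAC1 and ASNS differences rest on HCC827 in this contrast too. With all its arrays left out instead, CHAC1 stood at −0.08 (adjusted p = 0.944) and ASNS at −0.03 (adjusted p = 0.970).

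The IKKb difference was unevenly spread over the lines. In HCC827 the enzymes and the pseudokinase of the ATF4 arm were brighter on the IKKb array than on either partner, while ATF4 and HSPA5 were level. With 1 array per vector in a line there is no test of this, and the values are given as they stand, in the order MiG, IkB_SR and IKKb.

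CHAC1 in HCC827 read 212, 223 and 786. The IKKb array was 3.53-fold above MiG on the signal + 16 scale, which put CHAC1 at the 99.6th percentile of all genes in that line. In the other lines it read 299, 179 and 207 in A549, 220 in H23 with MiG against 396 and 175, 89.0, 161 and 204 in H358, and 169, 137 and 170 in PC9. H358 thus had the second-largest IKKb difference (log2 1.07, 2.09-fold), but its IkB_SR array was also above MiG, and A549 and H23 were lower with IKKb than with MiG.

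ASNS in HCC827 read 1382, 1722 and 4691, a 3.37-fold difference between IKKb and MiG (99.5th percentile). It read 2598, 2605 and 3227 in A549, 3210 with MiG against 4626 and 2938 in H23, 1525, 2297 and 1815 in H358, and 940.4, 690.5 and 1036 in PC9. The IKKb array was the highest of the 3 in A549, HCC827 and PC9, and the IkB_SR array in H23 and H358. Its second probe set was under the 40th percentile on all 15 arrays and is not informative.

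TRIB3 in HCC827 read 3202, 3279 and 6543, a 2.04-fold difference (97.3rd percentile). It read 4193, 5354 and 4014 in A549, 539, 636 and 503 in H23, 1699, 2341 and 1518 in H358, and 1788, 1558 and 2012 in PC9. In A549, H23 and H358 the highest of the 3 arrays was the IkB_SR array. A second TRIB3 probe set differed less in HCC827, by 0.61 on the log2 scale against 1.03, and it differed by as much in A549 (0.59), where the brightest differed by −0.06, so a larger TRIB3 difference in HCC827 than in A549 rests on the probe set.

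DDIT3 in HCC827 read 289, 361 and 552, 1.86-fold higher with IKKb than MiG (96.4th percentile). The other 4 lines differed by −0.18 to −0.01 on the log2 scale, all slightly lower with IKKb. SESN2 in HCC827 differed by 0.58, although its second probe set differed by 0.02. XBP1 differed there by 0.55, DNAJB9 by 0.44, HERPUD1 by 0.40, HSPA5 by 0.00 and ATF4 by −0.13. The second XBP1 probe set, dim and under the 40th percentile on 9 of the 15 arrays, differed there by −1.44. The 2 further probe sets of DNAJB9 differed by −0.07 and 0.00. The second of HSPA5 differed by 0.35 in HCC827 and by 0.26 in H23, where the brightest differed by −0.43.

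Counted by size, 3 of 10 members were at least 2-fold higher with IKKb than MiG in HCC827, where 2.84% of all genes were. The count was 1 of 10 in H358 (CHAC1), where 3.05% of all genes were. It was 0 of 10 in A549, H23 and PC9, where 0.947%, 2.57% and 1.57% of all genes were. With the probe sets of a gene averaged, the HCC827 count was 1. That average takes in the second ASNS probe set (0.18), under the 40th percentile on all 15 arrays, and the second of TRIB3 (0.61), under it on 0. The median member difference in HCC827 was 0.57, with 9 of 10 above 0, beside 48.4% of all genes. In the other 4 lines the median lay between −0.05 and 0.08. The 3 HCC827 arrays were alike in the Dap spike-in control (3692, 3678 and 3747) and in the 3′ to 5′ ratio of actin (1.17, 1.19 and 1.26). In H358 the IKKb array differed from its partners in both, with a Dap signal of 4376 against 1128 and 1103 and an actin ratio of 1.74 against 1.41 and 1.38. In HCC827 the IKKb array had the lowest actin signal of the 3 (26387 against 33625 and 30848) and the lowest GAPDH (22426 against 28075 and 25663). The summed signal of the 5 epithelial markers was lower on the HCC827 IKKb array (75465 against 95377 and 94068), and that of the leukocyte markers was 111 against 111 and 123. The part of these values in the differences of CHAC1, ASNS and TRIB3 was not tested.

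**Figure D2:**
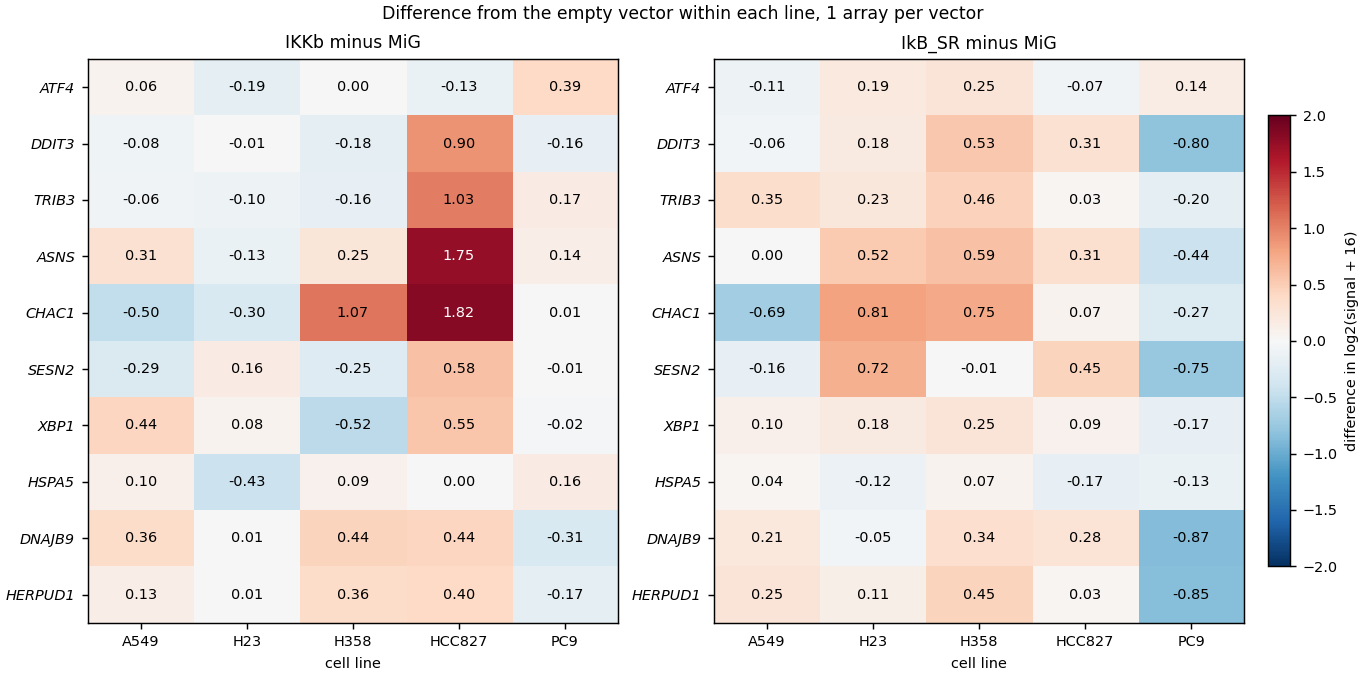
Difference in log2(signal + 16) from the MiG array of the same line for IKKb (left) and IkB_SR (right), with members in rows, lines in columns and 1 array per vector. CHAC1, ASNS, TRIB3 and DDIT3 in HCC827 with IKKb (1.82, 1.75, 1.03 and 0.90) and the PC9 column with IkB_SR (down to −0.87) stand out, and both panels use the same MiG arrays.

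The IkB_SR arrays lay to either side of MiG, depending on the line. In PC9, 1 of 10 members was above MiG, beside 50.4% of all genes, and the median difference was −0.36. DNAJB9 read 1090 with MiG, 589 with IkB_SR and 876 with IKKb there, and HERPUD1 2073, 1142 and 1837. DDIT3 read 375, 209 and 334, and SESN2 284, 162 and 282. For these 4 genes the IkB_SR array was thus the low one of the 3, and the MiG and IKKb arrays lay nearer each other. In PC9 10 of 10 members were higher with IKKb than with IkB_SR. They ranged from 0.15 for XBP1, at the 74.6th percentile of all genes, to 0.74 for SESN2, at the 95.3rd. All of these PC9 differences share 1 IkB_SR array. Between the same 2 vectors the other lines did not all go this way. In HCC827 9 of 10 members were higher with IKKb and in A549 6. In H358 3 were (median −0.25) and in H23 1 (median −0.32, with the IkB_SR array that goes against its label in NFKBIA). The PC9 MiG array had the lowest Dap signal of the line (2376 against 4047 and 4354), and the IkB_SR array the lowest summed leukocyte marker signal (107 against 459 and 528). Their part was not tested.

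In H358, 9 of 10 members were higher with IkB_SR than MiG (median 0.39), beside 51.2% of all genes, led by CHAC1 (0.75), ASNS (0.59) and DDIT3 (0.53). In H23 8 of 10 were, beside 55.1%, led by CHAC1 (0.81), SESN2 (0.72) and ASNS (0.52), on the array whose NFKBIA level goes against its label. In HCC827 8 of 10 were too (median 0.08), beside 52.6%, and in A549 6 of 10 (median 0.02), beside 42.6%. The order of vectors thus differed from line to line, and no member passed the test over lines.

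Within lines, many members moved together from array to array. After subtraction of each line's mean, Pearson's r over the 15 arrays had a median of 0.47 across the 45 pairs of members (Spearman's rho 0.52), from −0.12 to 0.91. The arrays share lines and scaling, so these are descriptions without a test. The 10 pairs among DDIT3, TRIB3, ASNS, CHAC1 and SESN2 had a median of 0.72 (0.50 to 0.86). Without HCC827 it was 0.63 (0.17 to 0.74), and TRIB3 with CHAC1 fell from 0.66 to 0.17. DNAJB9 and HERPUD1 were the closest pair (r = 0.91). The r of ATF4 was 0.16 with DDIT3, 0.19 with TRIB3, 0.22 with ASNS, 0.19 with CHAC1 and 0.23 with SESN2, and 0.56 with HSPA5. Without HCC827 these were 0.36, 0.53, 0.73, 0.50, 0.36 and 0.60. The low values of ATF4 with TRIB3, ASNS and CHAC1 thus rest on that line, while those with DDIT3 and SESN2 rose only to 0.36. HSPA5 in turn had r of 0.30 with DNAJB9 and 0.13 with XBP1.

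**Figure D3:**
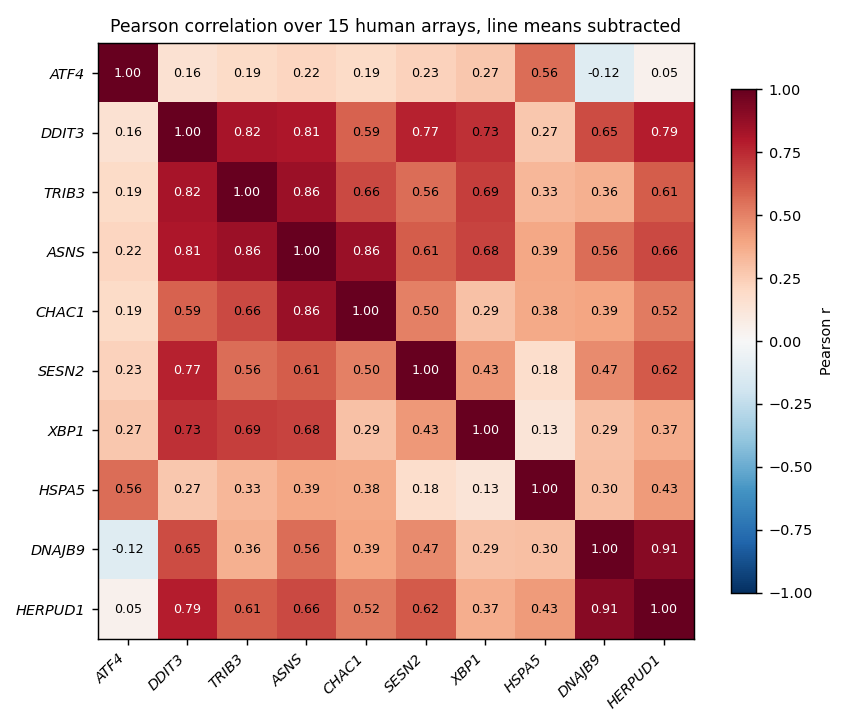
Pearson's r between members over the 15 human arrays after subtracting each line's mean of log2(signal + 16). DDIT3, TRIB3, ASNS and DNAJB9 with HERPUD1 form the dark cells (up to 0.91), and the ATF4 row is pale beside them. That paleness rests in part on HCC827: ATF4 with ASNS is 0.22 with that line and 0.73 without it, and with DDIT3 0.16 and 0.36.

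By the same measure, the genes outside the 10 whose levels went most closely with TRIB3 were SARS1, the seryl-tRNA synthetase, which is also on the ATF4 list described next (r = 0.92), MKNK2, a kinase that acts on the initiation factor eIF4E (0.92), GRAMD1B (0.90), TPCN1 (0.90) and CLPB (0.90). Without HCC827 these 5 ranged from 0.74 to 0.88. For HSPA5 they were TRIM29 (0.89), SSR4, a subunit of the ER translocon complex (0.89), LTBR (0.84), IGH (0.84) and RPS4Y1 (0.83). TRIM29, LTBR and RPS4Y1 were under the 40th percentile on 3, 1 and 4 of the 15 arrays.

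A wider view used 2 lists of textbook genes: 44 of the ATF4 arm (amino acid synthesis and transport, tRNA charging, stress factors) and 42 of the ER folding and degradation arm, neither holding a member. Both lists were chosen with earlier results of these data known, so their counts are no independent support. No gene of either list passed limma's adjusted threshold in the 3 human contrasts, out of 42 and 40 tested. For IKKb against MiG the ATF4 arm had a median log2 difference of 0.16 beside −0.01 for all genes tested, with 11 of 42 at an unadjusted p below 0.05, a level that 5.52% of all genes reached. The 2 with the smallest p were SLC7A11, the cystine transporter, at 0.40 ± 0.12, and CEBPB, a partner of ATF4, at 0.34 ± 0.11 (both adjusted p = 0.878). The ER arm had a median of 0.04, with 2 of 40 unadjusted: the co-chaperone DNAJC10 at 0.20 ± 0.08 and the IRE1 gene ERN1 at 0.46 ± 0.20 (both adjusted p = 0.878).

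For IkB_SR against MiG, on the same MiG arrays, the medians were 0.07 and 0.01 beside 0.00 for all genes, with 2 and 0 genes unadjusted, beside 4.44% of all genes. DDIT4 (0.28 ± 0.10) and VEGFA (0.16 ± 0.06) had the smallest p of the ATF4 arm, and DNAJB11 (−0.23 ± 0.12) and KDELR3 (0.36 ± 0.23) of the ER arm, all at an adjusted p of 0.995. For IKKb against IkB_SR the medians were 0.08 and 0.03 beside −0.01, with 11 of 42 and 7 of 40 unadjusted, beside 14.2% of all genes. PPP1R15A, which undoes the eIF2α phosphorylation, stood at 0.59 ± 0.16 (adjusted p = 0.114) and GDF15 at −1.13 ± 0.33 (adjusted p = 0.142). DNAJC10 (0.27 ± 0.08, adjusted p = 0.138) and the translocon gene SEC61A1 (0.25 ± 0.08, adjusted p = 0.167) had the smallest p of the ER arm.

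By line, the ATF4 arm differed between IKKb and MiG by a median of 0.46 in HCC827, 0.27 in H358, 0.06 in PC9, 0.04 in A549 and −0.01 in H23, beside −0.05 to 0.01 for all genes. In HCC827 34 of 42 genes were above 0, which is 81.0% beside 48.4% of all genes. Of these, 6 were at least 2-fold higher, and they are named after their values were seen: NUPR1 (1.75), ATF3 (1.27), PSAT1 of serine synthesis (1.18), CTH of cysteine synthesis (1.09), PCK2 (1.06) and the amino acid transporter SLC7A5 (1.04). The ER arm in HCC827 had a median of 0.04, and 1 of 40 genes, ERN1 (1.21), was 2-fold higher. In the HCC827 array pair the ATF4 arm was shifted in the direction of ASNS, CHAC1 and TRIB3. The ER arm had medians of 0.09 in A549, 0.08 in H358, −0.01 in PC9 and −0.04 in H23. In A549 29 of its 40 genes were above 0 (72.5% beside 43.3% of all genes), against 57.1% of the ATF4 arm. In H358 30 of 42 genes of the ATF4 arm were above 0 with IKKb (71.4% beside 51.4% of all genes), and 38 of 42 with IkB_SR (90.5% beside 51.2%, median 0.20), so a shift of the list was not confined to IKKb or to HCC827. The ends of the IKKb differences in H358 were NUPR1 at 1.22, from a signal of 17.2 under the 40th percentile, and GDF15 at −2.08 (2589 with MiG and 600 with IKKb).

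**Figure D4:**
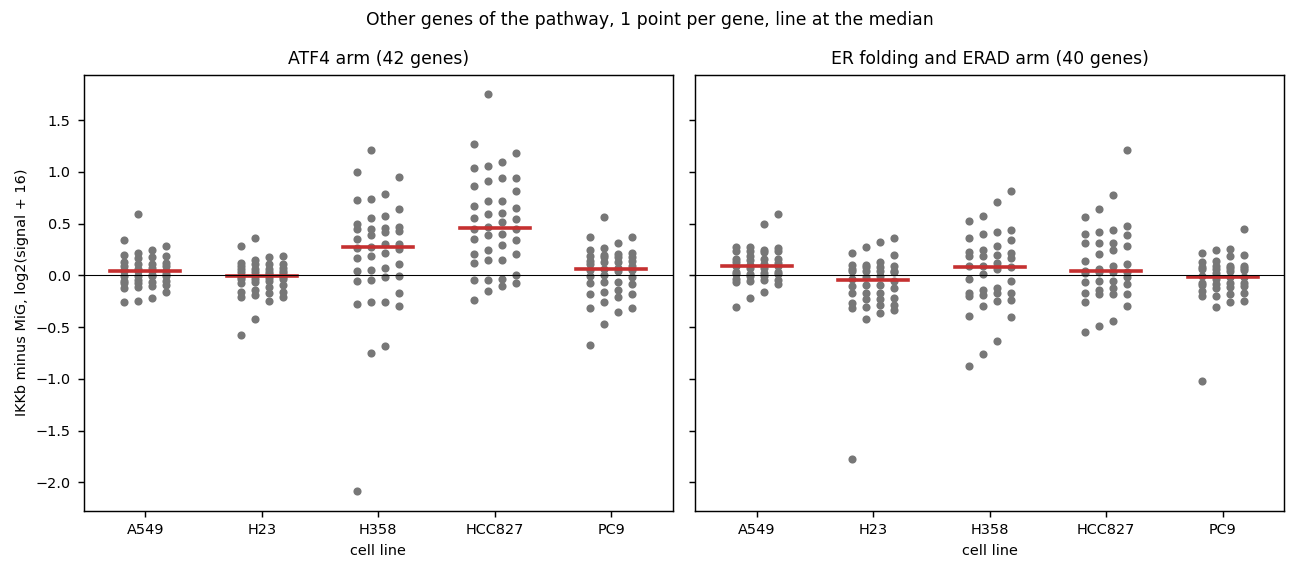
Difference in log2(signal + 16) between the IKKb and MiG arrays of each human line for the genes of the ATF4 arm and of the ER folding and degradation arm, 1 point per gene with the list median. The ATF4 arm is shifted up most in HCC827 (median 0.46) and next in H358 (0.27). The ER arm has a median of 0.04 in HCC827, 0.09 in A549 and 0.08 in H358.

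In LLC, IKKb and MiG were not told apart for any member. limma called 0 of 10 (0 unadjusted) and 0% of the 12549 genes tested, with 238 genes at an unadjusted p below 0.05. The differences ran from −0.52 for Ddit3 to 0.17 for Herpud1. The intervals were wide in this fit, which leaves out the replicate number, reaching from −2.20 to 1.73 for Chac1 and from −1.87 to 0.83 for Ddit3. With the number as a block limma still called 0 of 10, but 2 had an unadjusted p below 0.05: Ddit3 at −0.52 ± 0.18 (−0.89 to −0.15, adjusted p = 0.191) and Trib3 at −0.26 ± 0.13 (−0.52 to −0.01, adjusted p = 0.451). In that fit 223 genes passed overall. The array pair numbered 1 and the pair numbered 2 did not show the same thing. In the first, 1 of 10 members was above 0 with IKKb (median −0.34, Ddit3 −0.98). The other 9 lay at or under the 22.9th percentile of all genes. In the second, 6 of 10 were above 0 (median 0.01, Herpud1 0.57, the other 9 between −0.06 and 0.07). The lowest of these 6, Hspa5 at 0.01, was at the 53.0th percentile of all genes. The second probe sets of Ddit3 and Herpud1 went the other way: that of Ddit3 was higher with IKKb in both pairs (1.05 and 0.46), and that of Herpud1 lower in the second (−0.32). The direction of Ddit3 and Herpud1 between vectors is thus uncertain. Without the MiG array numbered 2, Chac1 and Ddit3 passed at −1.39 each (adjusted p = 0.00273 and 0.0106). That sets 1 MiG array numbered 1 against IKKb arrays of both numbers, so the difference between the numbers enters the contrast. Within number 1 the differences were −0.48 and −0.98.

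The larger difference among the LLC arrays lay between the numbers. This comparison was added after the values were seen. Chac1 read 2107 with MiG and 1501 with IKKb on the arrays numbered 1, against 411 and 417 on those numbered 2. Trib3 read 1572 and 1070 against 505 and 515. Herpud1 read 1844 and 1568 against 501 and 752. For these 3 genes both arrays numbered 1 exceeded both numbered 2, and the same held for Ddit3 (791 and 394 against 226 and 216) and Sesn2 (1724 and 1459 against 882 and 928). In all it held for 9 of 10 members by their brightest probe set, Dnajb9 being the exception, beside 27.5% of all genes. The 9 include Atf4, Xbp1 and Hspa5, whose other probe sets did not show it.

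In a limma fit with the vector as a term, 5 of the 10 members were higher on the arrays numbered 1, and 0 lower, beside 12.0% of all genes higher and 13.0% lower (1505 and 1628). Chac1 differed by 2.06 ± 0.12 (log2, SE, n = 2 against 2 arrays, 4.17-fold, adjusted p = 2.07e-13), Herpud1 by 1.45 ± 0.13 (adjusted p = 9.72e-10) and Trib3 by 1.32 ± 0.13 (adjusted p = 3.09e-09). Ddit3 differed by 1.28 ± 0.18 (adjusted p = 3.04e-06) and Sesn2 by 0.80 ± 0.11 (adjusted p = 2.15e-06). Such p-values rest on the spread that limma lends from genes of like brightness, since 4 arrays leave 1 residual degree of freedom. Without the intensity trend none of the 5 passed (adjusted p 0.0974 to 0.103), and 0 of 12549 genes did, with 3476 at an unadjusted p below 0.05.

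Asns (0.43), Atf4 (0.45), Xbp1 (0.46), Hspa5 (0.39) and Dnajb9 (0.07) did not pass. Asns read 9077 and 7470 on the arrays numbered 1 against 6202 and 6023, and Atf4 10680 and 8060 against 6771 and 6763. Dnajb9 read 1603 and 1738 against 1571 and 1614, with overlapping ranges. Other probe sets of Atf4, Xbp1 and Hspa5 above the 40th percentile had ratios of number 1 to number 2 from 0.648 to 1.11, so the direction of these 3 genes is uncertain. The second probe sets of Trib3 (2.45 with MiG and 2.14 with IKKb), Herpud1 (1.66 and 1.97), Ddit3 (1.27 and 1.91) and Sesn2 (1.32 and 1.30) were higher on the arrays numbered 1 as well.

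Scaling changed these counts. Centring each array on its median moved the median difference of all genes from −0.03 to 0.18, turned the split of calls from 1505 higher and 1628 lower to 3379 higher and 776 lower, and called 9 members, all but Hspa5. Quantile normalisation called 8. The arrays also differed in what was added to them: the Dap spike-in read 1679 and 1567 on the arrays numbered 1 against 28.7 and 19.4 on those numbered 2. The MiG array numbered 1 was brighter in actin (28969 against 14038 to 15828) and GAPDH (23892 against 12118 to 13162) than the other 3, and its fibroblast and endothelial markers summed to 20298 against 10208 to 11434, nearly all of it Col3a1. The part of these in the difference was not tested, and the number cannot be told apart from whatever else the 2 arrays of a number share.

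**Figure D5:**
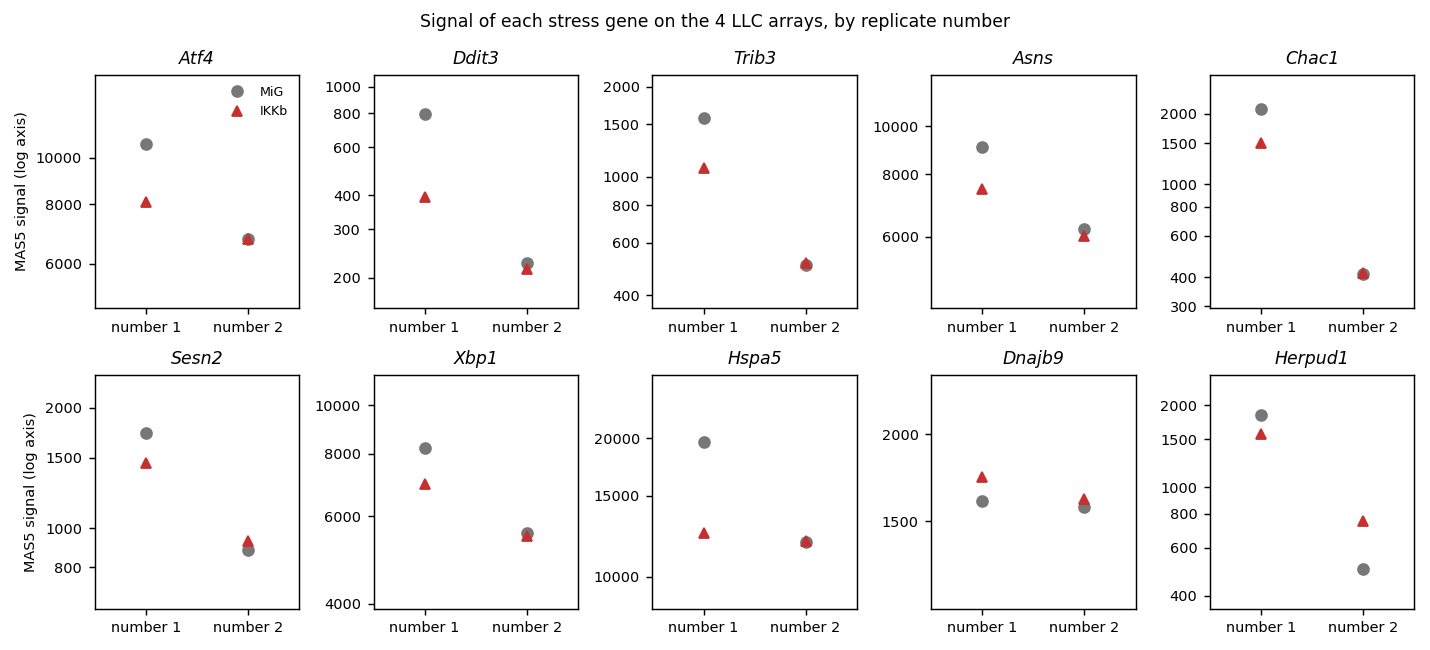
MAS5 signal (log axis) of the 10 stress genes on the 4 LLC arrays, by replicate number, with grey circles for MiG and red triangles for IKKb. Chac1, Trib3, Herpud1, Ddit3 and Sesn2 are higher on both arrays numbered 1, and for most genes the 2 vectors nearly coincide on the arrays numbered 2.

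Of the ATF4 arm 17 of 42 genes were higher on the arrays numbered 1 and 0 lower (median 0.27 beside −0.03 for all genes), beside the 12.0% and 13.0% of all genes. Nupr1, a stress-induced chromatin factor, was higher by 1.89 ± 0.14 (adjusted p = 2.12e-11), Pck2 by 1.32 ± 0.11 (adjusted p = 2.64e-10), the alanine aminotransferase Gpt2 by 0.99 ± 0.11 and the ATF4 partner Cebpg by 0.86 ± 0.11. Of the ER arm 7 of 42 were higher and 2 lower (median 0.12), a higher share near that of all genes. The higher ones with the smallest p were Edem2 (0.77 ± 0.13), Creb3l2 (0.67 ± 0.11), Ern1 (0.73 ± 0.12) and Ero1a (0.61 ± 0.13). The lower ones were Syvn1, the ubiquitin ligase of ER degradation (−0.35 ± 0.11, adjusted p = 0.0136), and Creld2 (−0.31 ± 0.11, adjusted p = 0.0332). These counts are of the same fit and share its dependence on the intensity trend, without which 0 genes passed. Between vectors in LLC 0 of 42 genes of either list passed (0 and 0 unadjusted). Aars (−0.22 ± 0.18) and Eif4ebp1 (−0.23 ± 0.26), and Hsp90b1 (−0.34 ± 0.26) and Ssr3 (−0.30 ± 0.24), had the smallest p.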

How the data were processed

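RNA of GFP-sorted cells was labelled as biotinylated cRNA and read on 15 human and 4 mouse Affymetrix arrays. The deposited values are linear MAS5 intensities (signals) made by the authors with GCOS 1.4, per the submitters' processing notes. In the files each array's mean after trimming 2% at either end is 500 to 500.1. Probe sets were named from the platform annotation: 41097 of 54675 human and 34958 of 45101 mouse probe sets name 1 gene, 1801 and 932 several, 11777 and 9211 none, and those were left out. Genes above their array's 40th percentile on 5 or more human or 2 or more mouse arrays were kept. Log2(signal + 16) of the brightest probe set was fitted with limma 3.58.1 in R 4.3.3 (eBayes with intensity trend, two-sided, Benjamini-Hochberg over all genes kept, threshold 0.05), and the script was tested on simulated data. The human fit blocked on the cell line, because same-numbered samples are the same line. The LLC fit had no block. There the deviations of same-numbered arrays correlated at 0.53 over 2 pairs. Named list genes were those past the threshold, up to 6 per direction and otherwise the 4 with the smallest p, or the 2 with the smallest p where none passed. The 10 members and both lists were chosen with earlier results of these data known.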

Additional observations from a re-analysis of the deposited data

Results flagged for a closer look

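In 60 groups of 5 lines, 6 had a highest or lowest line far from the rest, where chance gives about 1 in 20 for independent groups. These groups are not independent, since they reuse the same 15 human arrays and many members moved together. The count is therefore no test against chance. HCC827 was the far line for the log2 difference between IKKb and MiG of DDIT3 (0.90), TRIB3 (1.03) and ASNS (1.75), and for the level of CHAC1 with IKKb (log2(signal + 16) of 9.65). H23 was the far line for HSPA5, which differed by −0.43 between IKKb and MiG there, while its second probe set differed by 0.26. PC9 was the far line for DNAJB9 between IKKb and IkB_SR (0.56). The 4 HCC827 values share 1 array, labelled HCC827 IKKb.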

How the results depend on the processing

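With 1 array per line and vector, or 2 per vector in LLC, the number of arrays limits what could be detected. In the human vector contrasts the count of called members was 0 under every alternative run, including the fit with no replicate block (0 of 10, and 0 genes against 142 for IKKb against IkB_SR). The count of all genes for that contrast fell to 86 with no filter, 44 with averaged probe sets, 21 without the intensity trend, 69 without the array labelled H23 IkB_SR, 15 with the 2 compared vectors alone, and 67, 31 and 24 without H23, HCC827 and PC9. IkB_SR against MiG gave 8 genes without H358 and 1 with the compared vectors alone, and IKKb against MiG gave 1 with averaged probe sets. In LLC the members called between vectors ranged from 0 to 2 with 1 array left out. All genes numbered 223 with the replicate block (0 of 10 members), 2 with a pseudocount of 64, and 5 to 138 with 1 array left out. On the arrays numbered 1 against 2, 8 members were called with quantile normalisation, 9 with median centring and 0 without the intensity trend. The HCC827 count of 3 became 1 with averaged probe sets, an average that takes in the dim second probe set of ASNS. The median correlation of members was 0.55 with quantile normalisation and 0.41 to 0.59 with 1 line or the H358 IKKb array left out. The causes were not tested.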
